A study of Mus musculus with 8 samples.

Results

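Il4, Il13 and Il5 encode the type 2 cytokines and lie close together on mouse chromosome 11, interleaved with and flanked by Rad50, Kif3a and Irf1. These 6 genes, 3 cytokine genes and 3 genes beside them, were taken by symbol from the 55665 genes measured in 8 stranded RNA-seq libraries of mouse nTreg cells, the natural regulatory T cells that arise in the thymus. The cells were CD4+GFP+ and came by flow sorting from the spleens and lymph nodes of mice carrying RosaCas9/+ and Foxp3gfp, a reporter of Foxp3, and they were then kept in culture. Every group therefore carried the Cas9 allele and the reporter. In 2 groups the cells had the guide RNA sgFoxp3, which directs Cas9 to Foxp3, and were either restimulated for 3 h with antibodies against CD3 and CD28, which engage the T cell receptor (TCR) and its costimulatory receptor, or mock-treated with DPBS buffer (0 h). The other 2 groups had the control guide sgNC and the same pair of treatments. Each group held 2 libraries. The labels name 1 Foxp3 guide without its sequence, and neither the age of the mice nor whether the libraries of a group came from separate animals or cultures is given in the sources used here, so p-values measure only the spread between libraries, which may be technical.

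Type 2 cytokines are made by T helper 2 (Th2) cells, mast cells, basophils and type 2 innate lymphoid cells. IL-4 drives Th2 differentiation and class switching to IgE, IL-13 acts on epithelium and smooth muscle, and IL-5 supports eosinophils. The cytokine genes are silent in resting T cells and are opened together in Th2 cells by GATA3 and STAT6, under a locus control region that lies inside the Rad50 gene. Upon TCR signalling, NFAT and AP-1 factors bind the promoters and set off rapid transcription. Foxp3, the factor that specifies regulatory T cell identity, holds effector cytokine genes down. The flanking genes have other duties: RAD50 is a subunit of the MRE11 complex that repairs DNA double-strand breaks, KIF3A is a motor of kinesin-2 needed for cilia and transport, and IRF1 is a transcription factor induced by interferons.

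With the Foxp3 guide, all 3 cytokine genes were far higher than with the control guide at 3 h, whereas Rad50, which lies between Il13 and Il5, and Kif3a, which lies beside Il4, were higher by under 1 on the log2 scale and Irf1 was lower. At 0 h the cytokine transcript found above a handful of counts was Il4 with the Foxp3 guide. TCR restimulation raised all 3 cytokine genes with either guide, and Rad50 and Kif3a were lower at 3 h than at 0 h with both guides.

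In GRCm38 with the GENCODE M21 annotation, the 6 genes spanned 211.0 kb. From one end to the other they were Kif3a (positions 53567379 to 53601967, plus strand), Il4 (53602982 to 53618669, minus strand), Il13 (53631324 to 53634702, minus strand), Rad50 (53649519 to 53707319, minus strand), Il5 (53720794 to 53725106, plus strand) and Irf1 (53770014 to 53778374, plus strand). The gap between Kif3a and Il4 was 1014 bp, and those between the later neighbours were 12654, 14816, 13474 and 44907 bp. The annotated Il4 gene is this long because it includes a non-coding transcript that ends near Kif3a, and gene-level values add that transcript to the coding one. The 6 other genes annotated within the span were nearly unread: Gm22275, the Il5 antisense gene Gm12214 and Mir7671 had 0 counts in all 8 libraries, the pseudogenes Rps2-ps4 and Gm12213 had 4 and 1 counts in all, and Gm17334, which overlaps Irf1 on the other strand, had 79 counts with at most 19 in a library.

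The promoters are shown because the cytokine genes and Irf1 moved in opposite directions with the Foxp3 guide at 3 h. They are the 250 bases before the start site, from RefSeq on GRCm38.p6, with the outer start site where a gene had 2 listed. Capitals mark matches to 5 motifs searched on both strands. The core bound by NFAT was written as GGAAA. For AP-1 the letters were TGANTCA. The motif of the GATA family was GATAA, and that of forkhead factors, the family of Foxp3, was TAAACA. The GAS element bound by STAT factors was TTCNNNGAA. Kif3a also matched an entry in that table.
Il4, chr11:53618666-53618915, minus strand: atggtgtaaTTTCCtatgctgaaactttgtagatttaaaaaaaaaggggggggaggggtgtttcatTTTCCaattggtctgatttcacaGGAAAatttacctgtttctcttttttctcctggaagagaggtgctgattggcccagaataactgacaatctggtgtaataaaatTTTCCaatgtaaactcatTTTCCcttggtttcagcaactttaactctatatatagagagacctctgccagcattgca
Il13, chr11:53634703-53634952, minus strand: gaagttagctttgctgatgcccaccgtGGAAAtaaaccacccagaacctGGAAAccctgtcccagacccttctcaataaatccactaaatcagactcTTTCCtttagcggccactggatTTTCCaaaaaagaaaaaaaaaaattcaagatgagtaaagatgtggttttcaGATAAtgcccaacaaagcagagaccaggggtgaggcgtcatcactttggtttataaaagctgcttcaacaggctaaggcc
Il5, chr11:53720544-53720793, plus strand: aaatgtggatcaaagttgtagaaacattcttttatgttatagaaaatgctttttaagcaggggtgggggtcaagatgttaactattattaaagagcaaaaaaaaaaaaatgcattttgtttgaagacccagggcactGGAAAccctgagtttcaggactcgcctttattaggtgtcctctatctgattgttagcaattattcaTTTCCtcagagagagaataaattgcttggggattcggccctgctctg
Irf1, chr11:53769764-53770013, plus strand: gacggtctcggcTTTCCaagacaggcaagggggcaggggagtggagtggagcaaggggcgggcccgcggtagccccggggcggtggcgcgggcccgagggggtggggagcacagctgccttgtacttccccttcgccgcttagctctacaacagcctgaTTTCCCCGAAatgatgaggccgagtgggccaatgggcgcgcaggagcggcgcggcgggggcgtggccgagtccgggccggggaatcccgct
The GGAAA core was found 5 times before Il4, 4 times before Il13, 2 times before Il5, 2 times before Irf1 and 1 time before Kif3a. Of 32851 mouse promoters of the same length, 55.6% held at least 1 such core. GATAA was found 1 time, before Il13 (22.6% of all promoters). The GAS element was found 1 time, before Irf1, where it overlapped a GGAAA match (7.02% of all promoters). TGANTCA (6.75% of all promoters) and TAAACA (12.0%) had no match in these windows. The other listed start sites of Il4 and Irf1 had no match to any of the 5 motifs. Matches of this kind describe letters and do not show binding.

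The libraries held 38729009 to 94807362 expected counts, the read counts per gene as estimated by RSEM, with the deepest library in the Foxp3 guide 3 h group. Foxp3 itself was measured at 30.72 and 27.89 TPM, a level scaled to transcript length and library size, with the Foxp3 guide at 3 h, against 337.14 and 329.81 TPM with the control guide. At 0 h the values were 44.01 and 44.41 TPM with the Foxp3 guide, against 485.76 and 501.26 TPM with the control guide. The log2 change in Foxp3 was −3.19 ± 0.041 at 3 h and −3.13 ± 0.041 at 0 h (± SE throughout for log2 changes), so each library matched the guide in its label. All 8 T cell markers had counts in every group, with summed levels of 2811.81 to 2823.08 TPM (Foxp3 guide, 3 h), 3470.41 to 3544.28 TPM (control guide, 3 h), 3269.49 to 3348.69 TPM (Foxp3 guide, 0 h) and 3483.65 to 3559.16 TPM (control guide, 0 h). The 8 Treg markers, Foxp3 among them, summed to 1616.81 to 1661.38 TPM with the Foxp3 guide and 4344.29 to 4428.11 TPM with the control guide at 3 h, and to 1111.04 to 1118.06 TPM and 3034.63 to 3045.9 TPM at 0 h.

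All 6 members passed the filter on low counts, which asked for a CPM (a count scaled to library size) of at least 0.191 in 2 libraries. Rad50, Kif3a and Irf1 passed in all 4 groups and Il4 in all but the control guide 0 h group. Il13 and Il5 passed only through the 3 h groups, so a difference between the times had to appear for them, and counts of members over the TCR comparisons support nothing.

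**Figure D1:**
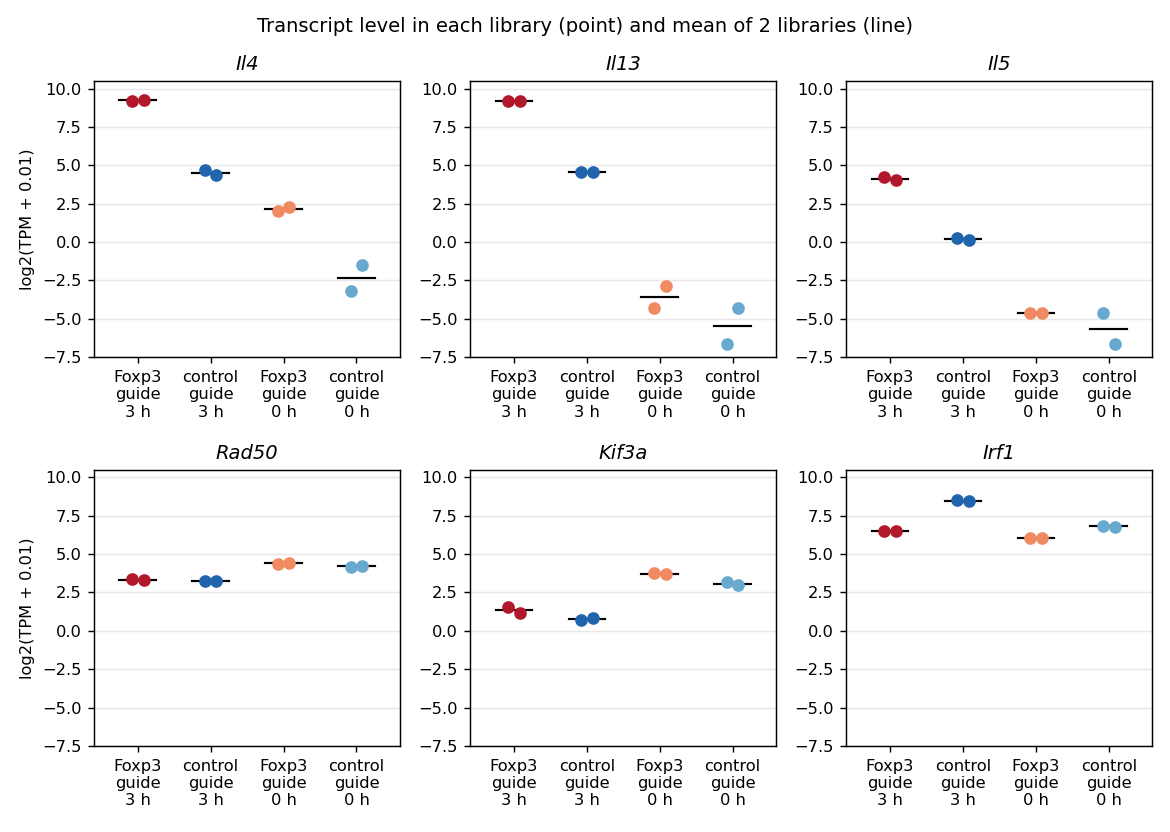
Level of each of the 6 genes as log2(TPM + 0.01) in each library (points, 2 per group) with the mean of the 2 libraries (line), for the Foxp3 guide and control guide at 3 h and at 0 h. The cytokine genes in the top row stand highest with the Foxp3 guide at 3 h (598.68 and 618.2 TPM for Il4) and lowest with the control guide at 0 h, while Rad50 and Kif3a stand higher at 0 h and Irf1 is highest with the control guide at 3 h.

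The first comparison asked what the Foxp3 guide changed in restimulated cells. Il4 was measured at 598.68 and 618.2 TPM with the Foxp3 guide at 3 h, against 25.47 and 20.6 TPM with the control guide. Il13 reached 576.28 and 577.04 TPM with the Foxp3 guide, against 23.26 and 23.93 TPM with the control guide. Both cytokines thus stood at nearly equal levels to each other within either guide, and the libraries of the 2 guides did not overlap. Il5 was lower throughout, at 18.77 and 16.68 TPM with the Foxp3 guide, against 1.22 and 1.07 TPM with the control guide.

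In edgeR's quasi-likelihood test over 16642 genes, with Benjamini-Hochberg adjusted p-values, the log2 change at 3 h was 4.91 ± 0.078 for Il4 (adjusted p = 3.4e-23), 4.81 ± 0.051 for Il13 (2.8e-27) and 4.15 ± 0.15 for Il5 (2.3e-19). Ordered from the largest rise, Il4 took place 21, Il13 place 22 and Il5 place 49 of the 16642 genes. Counting error left these values narrow, as the ratio of summed counts had a 95% interval of 4.80 to 5.04 for Il4, 4.75 to 4.89 for Il13 and 3.85 to 4.44 for Il5. Such intervals cover counting error only. In RNA from bulk samples, more cells making a cytokine and more RNA per cell cannot be told apart.

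The neighbours had a different pattern at 3 h. Irf1 was measured at 90.77 and 89.47 TPM with the Foxp3 guide, against 363.38 and 353.67 TPM with the control guide, and its log2 change was −1.80 ± 0.037 (adjusted p = 5.1e-22). Kif3a had 2.99 and 2.25 TPM with the Foxp3 guide, against 1.64 and 1.75 TPM with the control guide, a log2 change of 0.73 ± 0.11 (adjusted p = 4e-06). For Rad50 the levels were 10.26 and 9.72 TPM with the Foxp3 guide and 9.66 and 9.58 TPM with the control guide. In CPM, Rad50 averaged 32.6 ± 0.54 with the Foxp3 guide, against 28.8 ± 0.57 with the control guide (SD, n = 2 each), a log2 change of 0.18 ± 0.052 (adjusted p = 0.0049). This call ended on the TPM scale, where the log2 change was 0.05 (adjusted p = 0.52), and the median gene moved by −0.118 on that scale. All 6 members were called at 3 h, where 61.5% of all tested genes were called, 30.7% higher and 30.8% lower.

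The second comparison asked the same of mock-treated cells. Il4 had 4.08 and 4.96 TPM with the Foxp3 guide at 0 h, from 81 and 95 counts, against 0.1 and 0.35 TPM with the control guide, from 1 and 4 counts. It was higher in both libraries with the Foxp3 guide, with a log2 change of 4.50 ± 0.67 (adjusted p = 1.1e-09). The size of this change rests on few control counts: the counting interval was 3.31 to 6.20, and the value was 5.69 without control guide replicate 2 and 3.92 without control guide replicate 1. Il13 had 2 and 6 counts with the Foxp3 guide and 0 and 1 count with the control guide, which is a ratio of 2.42 on the log2 scale with an interval of −0.48 to 7.89 that spans 0 (adjusted p = 0.08 in edgeR's test). Leaving out Foxp3 guide replicate 1 at 0 h brought the adjusted p to 0.032 with a log2 change of 2.80. Il5 had 2 counts in each library with the Foxp3 guide, against 1 and 0 counts with the control guide, or 1.42 as a log2 ratio with an interval of −1.92 to 7.04 (adjusted p = 0.41). Neither gene passed the test at 0 h with all libraries, at 8 or fewer counts in each group.

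At 0 h the neighbours moved in the directions they showed at 3 h. Kif3a had 13.54 and 12.98 TPM with the Foxp3 guide, against 9.11 and 7.8 TPM with the control guide, a log2 change of 1.0 ± 0.074 (adjusted p = 1.4e-11). Rad50 had 20.59 and 21.31 TPM with the Foxp3 guide, against 17.91 and 18.88 TPM, a log2 change of 0.44 ± 0.047 (adjusted p = 1.5e-08). Irf1 had 65.36 and 65.9 TPM with the Foxp3 guide, against 111.68 and 111.27 TPM, a log2 change of −0.52 ± 0.038 (adjusted p = 2e-11). The groups did not overlap for any of these 3 genes. Of the members, 4 of 6 were called at 0 h, beside 63.3% of all tested genes, which is near the background. The 2 guide comparisons share no library.

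Restimulation through the TCR was compared with mock treatment within each guide. With the Foxp3 guide, Il13 had 23539 and 40947 counts at 3 h, against 2 and 6 counts at 0 h, a log2 ratio of counts of 13.07 with an interval of 12.09 to 14.28. Il5 had 1019 and 1573 counts at 3 h, against 2 and 2 at 0 h, a log2 ratio of 9.43 (8.08 to 11.31). For Il4 the log2 change was 7.31 ± 0.12, smaller than that of Il13, with 81 and 95 counts of Il4 already present at 0 h. With the control guide, Il4 had 325 and 256 counts at 3 h, against 1 and 4 at 0 h, with a ratio of 6.96 on the log2 scale (5.73 to 8.59). Il13 had 764 and 757 counts at 3 h with the control guide, against 0 and 1 at 0 h, a log2 ratio of 10.67 (8.19 to 15.98), and Il5 had 53 and 45 counts, against 1 and 0, a log2 ratio of 6.72 (4.20 to 12.03). Since these control ratios rest on 1 to 5 counts, either control guide 0 h library moved them: without replicate 2 the fitted log2 changes were 8.08 for Il4 and 5.51 for Il5, and without replicate 1 they were 6.30 for Il4 and 9.59 for Il13. Leaving out replicate 2 left 0 control counts of Il13 at 0 h, and leaving out replicate 1 left 0 of Il5.

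Rad50 and Kif3a fell on restimulation. The log2 change of Rad50 was −0.98 ± 0.048 for the Foxp3 guide, against −0.71 ± 0.052 for the control guide. That of Kif3a was −2.19 ± 0.081 for the Foxp3 guide, against −1.92 ± 0.11 for the control guide, so that its 3 h levels of 1.64 to 2.99 TPM were its lowest in the 4 groups. Irf1 rose with both guides, by 0.77 ± 0.038 for the Foxp3 guide, against 2.06 ± 0.037 for the control guide. All 6 members were called in both TCR comparisons, where 85.4% of all tested genes were called for the Foxp3 guide (40.8% higher and 44.5% lower), against 81.8% for the control guide (40.9% higher and 40.9% lower).

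The difference between the 2 TCR effects was tested in the same model, where 44.8% of all genes were called (17.8% higher and 27% lower). It was −1.29 ± 0.053 for Irf1 (adjusted p = 1.6e-15) and −0.26 ± 0.070 for Rad50 (adjusted p = 0.0037), so Irf1 rose less with the Foxp3 guide. The Rad50 difference was lost without Foxp3 guide replicate 2 at 3 h (−0.18, adjusted p = 0.09), by DESeq2 (−0.20, adjusted p = 0.088) and in 3 fits on TPM (−0.13, adjusted p = 0.26 to 0.33). For Kif3a it was −0.27, with a 95% interval of −0.55 to 0.01 (adjusted p = 0.11), and it passed the threshold without Foxp3 guide replicate 1 at 3 h (−0.38, adjusted p = 0.034). The cytokine genes had wide intervals, since the control guide 0 h libraries held so few counts: 0.41 for Il4 (−0.99 to 1.81, adjusted p = 0.72), 2.61 for Il13 (−0.27 to 5.49, adjusted p = 0.31) and 2.89 for Il5 (−0.06 to 5.85, adjusted p = 0.26). Leaving out 1 library moved these values, from 0.03 to 3.58 for Il13 and from 0.30 to 3.82 for Il5, where the lowest values were fits without control guide 0 h replicate 2 for Il13 and replicate 1 for Il5, each of which left 0 control counts at 0 h. The difference was called by limma-voom on the counts (3.18 for Il13, adjusted p = 0.0033, and 3.18 for Il5, adjusted p = 0.0047) and by limma on log2(TPM + 1) (4.47 for Il13 and 3.10 for Il5), so this call depends on the model.

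**Figure D2:**
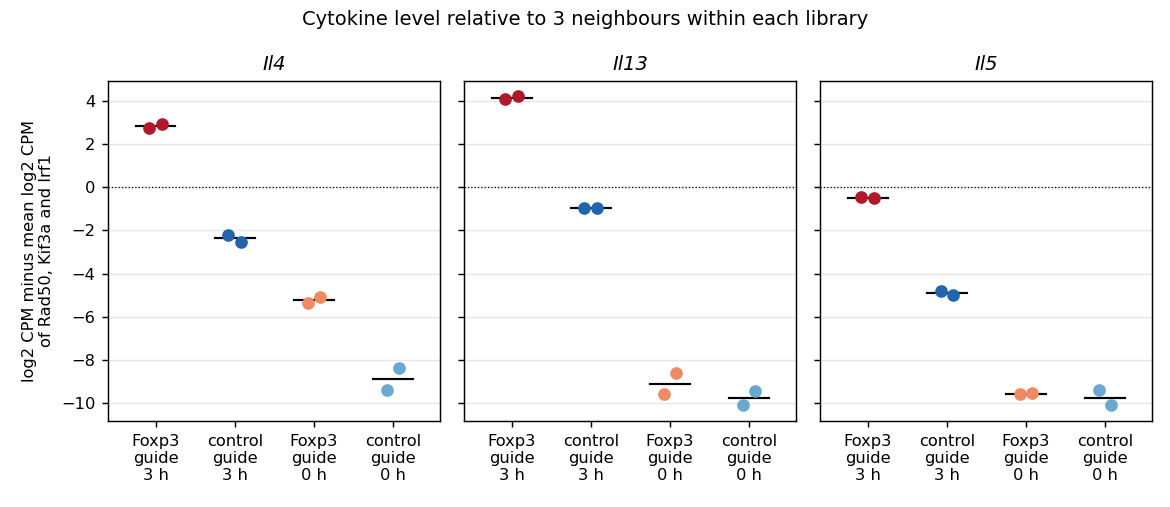
Level of Il4, Il13 and Il5 within each library (points) as log2 CPM minus the mean log2 CPM of Rad50, Kif3a and Irf1, with the mean of 2 libraries (line) and a dotted line at 0. The Foxp3 guide 3 h libraries lie highest in each panel (2.75 and 2.93 for Il4), and at 0 h Il13 and Il5 lie between −8.62 and −10.11. The log2 CPM include a prior count of 2. The 0 h points of Il13 and Il5, from 0 to 6 counts each, therefore lie near the floor that it sets.

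Set against the 3 neighbours within the same library, which removes scaling between libraries, the cytokine genes still stood apart. The log2 ratio of Il4 to the mean of its neighbours was 2.75 and 2.93 with the Foxp3 guide at 3 h, against −2.21 and −2.52 with the control guide. For Il13 it was 4.06 and 4.20 with the Foxp3 guide, against −0.98 and −0.96 with the control guide, and for Il5 it was −0.46 and −0.50, against −4.79 and −4.99. The difference between the guides was 5.21 for Il4, 5.11 for Il13 and 4.41 for Il5, with no overlap between the libraries. The size depends on the reference, since Irf1 was itself lower with the Foxp3 guide at 3 h (−1.80). With Kif3a alone as reference the differences were 4.17, 4.07 and 3.38, and with Irf1 alone 6.72, 6.61 and 5.92. Since CPM is not per length, these ratios compare libraries and not genes. In TPM, the 3 cytokine genes together summed to 1193.73 and 1211.92 with the Foxp3 guide at 3 h, against 49.95 and 45.6 with the control guide, while the 3 neighbours summed to 104.02 and 101.44, against 374.68 and 365.0. Irf1 made up most of the neighbours' sum in each of these libraries.

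The share of Il13 beside Il4 differed between times by more than counting error. Il13 made up 70.9% of the Il4 and Il13 counts with the Foxp3 guide at 3 h (exact Clopper-Pearson 95% interval 70.6 to 71.2), and 72.4% with the control guide (70.4 to 74.3). The intervals of the 2 guides overlap. At 0 h the share was 4.35% with the Foxp3 guide (1.90 to 8.39), from 8 of 184 counts, and 1 of 6 counts with the control guide. Per transcript length, Il13 stood at 0.963 and 0.933 of the Il4 level with the Foxp3 guide at 3 h, against 0.913 and 1.16 with the control guide. At 0 h it stood at 0.0098 and 0.0262 of the Il4 level with the Foxp3 guide. Il5 made up 1.57% and 1.38% of the summed cytokine TPM with the Foxp3 guide at 3 h, and 2.44% and 2.35% with the control guide.

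**Figure D3:**
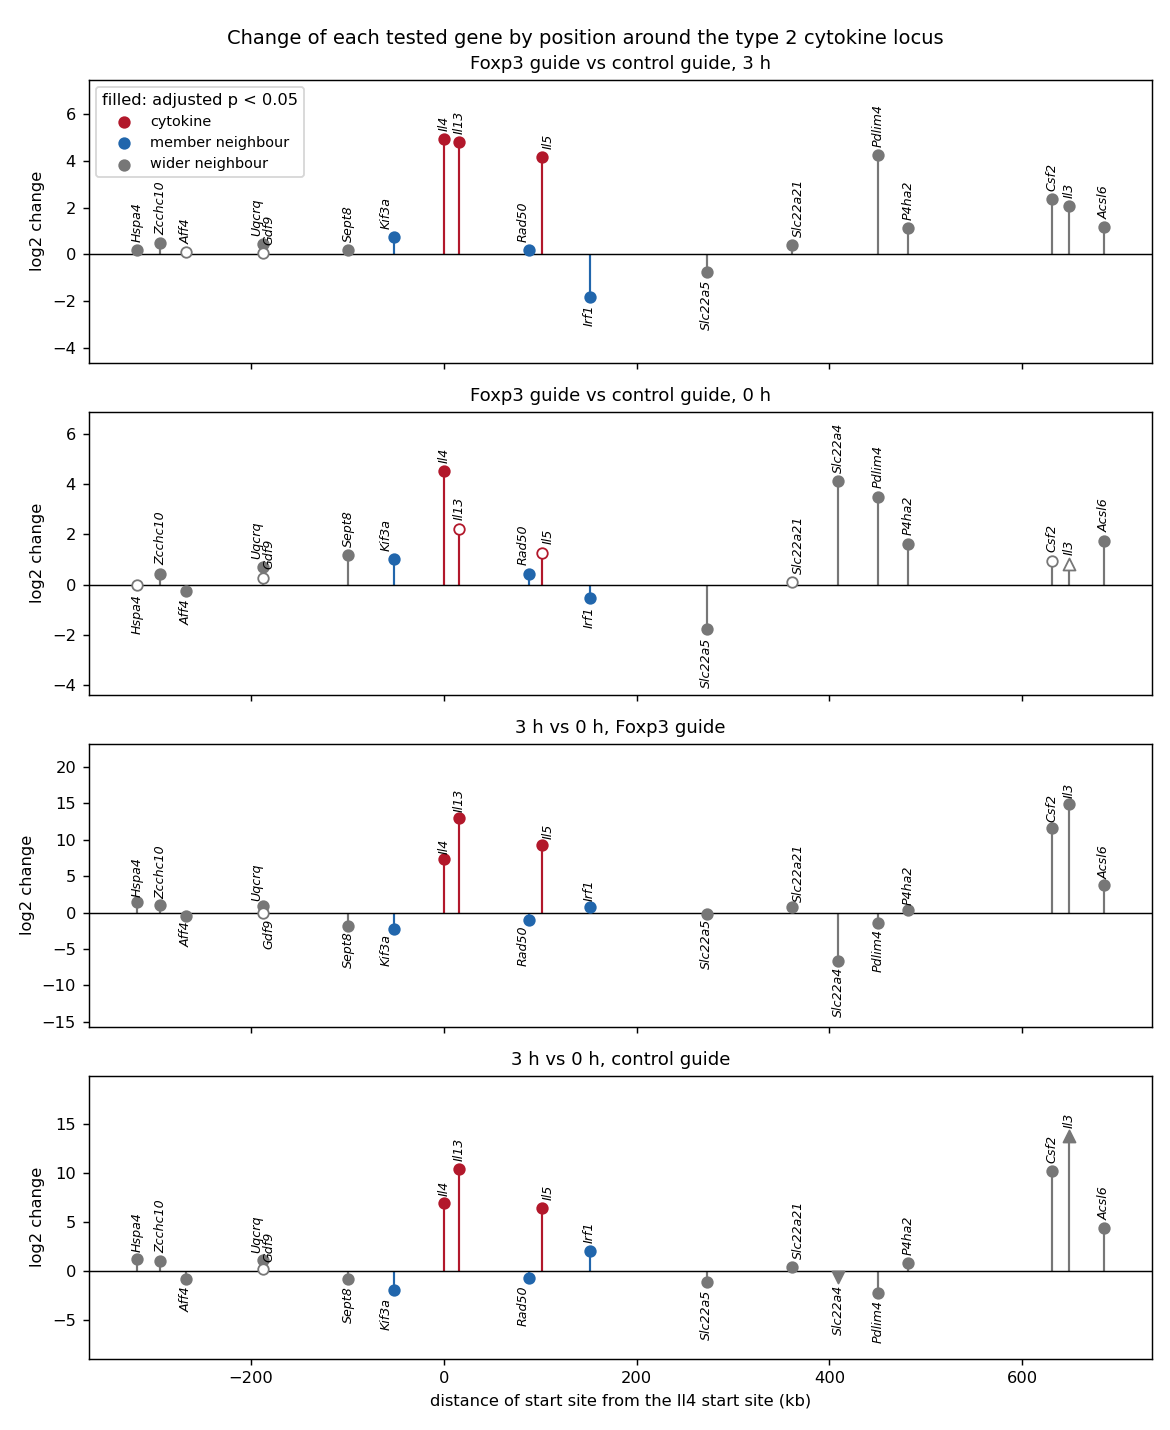
Log2 change of each tested gene against the distance of its start site from that of Il4 (kb), in 4 panels for the guide effect at 3 h and 0 h and the TCR effect with each guide. Red marks the cytokine genes, blue Rad50, Kif3a and Irf1, and grey the wider neighbours. Filled points have an adjusted p under 0.05, triangles are bounds against 3 counts where a group had 0 counts, and Il4 (4.91) and Il13 (4.81) stand highest at 3 h, with Pdlim4 (4.26) beyond the locus.

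Beyond Kif3a and Irf1, 17 further genes of the surrounding region were in the table and 14 were tested. At 3 h, 10 were higher and 1 lower with the Foxp3 guide, with a median log2 change of 0.46 beside −0.01 over all genes, of which 30.7% were higher and 30.8% lower. At 0 h, 7 were higher and 2 lower, beside 34.2% and 29.1% of all genes, with a median of 0.81 beside 0.02 over all genes, or 0.76 with Il3, which had 0 counts with the control guide, at its bound. Pdlim4, which encodes a PDZ and LIM domain protein, had 5.57 and 6.02 TPM with the Foxp3 guide at 3 h, against 0.19 and 0.42 TPM with the control guide, and 17.73 and 16.34 TPM at 0 h, against 1.79 and 1.82 TPM. Its log2 change was 4.26 ± 0.32 at 3 h and 3.50 ± 0.16 at 0 h. Pdlim4 fell on restimulation, by 1.45 on the log2 scale for the Foxp3 guide and by 2.21 for the control guide.

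The carnitine transporter gene Slc22a5 was lower with the Foxp3 guide, by −0.73 ± 0.054 at 3 h and −1.75 ± 0.050 at 0 h. Its neighbour Slc22a4, an organic cation transporter gene, had 67 and 67 counts with the Foxp3 guide at 0 h, against 3 and 2 with the control guide, or 4.16 as a log2 ratio (2.91 to 5.81), and 0 or 1 count in each 3 h library. Slc22a4 passed the filter on low counts only through the group where it was high, that of mock-treated Foxp3 guide cells. Its direction between the guides was thus fixed, and its place among the wider neighbours called higher at 0 h supports nothing. P4ha2, a subunit of collagen prolyl hydroxylase, was higher by 1.11 ± 0.16 at 3 h and 1.63 ± 0.18 at 0 h, and Acsl6, a fatty acid CoA ligase, by 1.16 ± 0.049 and 1.74 ± 0.12. On the other side of the locus the septin gene Sept8 was higher by 0.18 ± 0.067 at 3 h and 1.16 ± 0.054 at 0 h. Zcchc10 was higher by 0.48 ± 0.056 and 0.43 ± 0.066, and Uqcrq, a subunit of respiratory complex III, by 0.45 ± 0.045 and 0.69 ± 0.049. Hspa4 (0.20 ± 0.038) and Slc22a21 (0.39 ± 0.16) were called higher at 3 h and not at 0 h, Aff4 was lower at 0 h (−0.25 ± 0.040) and not called at 3 h, and Gdf9 was called in neither. Leap2, Shroom1 and Sowaha were too low to test.

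The start sites of the cytokine genes Csf2 and Il3 lie 631.0 and 648.6 kb from that of Il4. Il3 had 5199.84 and 5329.5 TPM with the Foxp3 guide at 3 h, against 1411.19 and 1429.31 TPM with the control guide, a log2 change of 2.08 ± 0.073. Csf2, which encodes GM-CSF, had 1298.22 and 1298.31 TPM with the Foxp3 guide, against 282.51 and 301.18 TPM with the control guide, a log2 change of 2.35 ± 0.050. Both stood above Il4 in TPM at 3 h with either guide, and their changes with the Foxp3 guide were smaller than those of Il4 and Il13. At 0 h they held 8 and 29 counts with the Foxp3 guide, against 0 and 10 with the control guide. On restimulation Csf2 rose by 11.62 ± 0.30 for the Foxp3 guide, against 10.22 ± 0.50 for the control guide. Il3 was at least 14163.7-fold higher at 3 h than at 0 h with the control guide, taking 3 counts over the 0 h group. Csf2 and Il3 passed the filter on low counts only through the 3 h groups, so that their direction on restimulation was fixed.

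Receptors and signalling components of the type 2 cytokines did not rise with the guide: of 10 tested genes, 0 were higher and 8 lower at 3 h, and 0 were higher and 8 lower at 0 h. Over all genes 30.7% were higher and 30.8% lower at 3 h, and 34.2% and 29.1% at 0 h. The median log2 change of the list was −0.46 at 3 h and −0.47 at 0 h, beside −0.01 and 0.02 over all genes. Csf2rb, the beta chain shared by the receptors of IL-3, IL-5 and GM-CSF, changed by −2.35 ± 0.24 at 3 h and −2.36 ± 0.11 at 0 h in the fit to counts. At 3 h its levels were 0.14 to 0.28 TPM with the Foxp3 guide and 0.44 to 0.5 TPM with the control guide. These low levels differ by less than the fit to counts gives, so the size of its change at 3 h depended on the scale. Socs1, an inhibitor of JAK signalling, changed by −0.63 ± 0.061 at 3 h and −1.99 ± 0.078 at 0 h. Il4ra, the IL-4 receptor alpha chain, changed by −0.59 ± 0.039 at 3 h and had −0.07 ± 0.036 at 0 h (adjusted p = 0.12). Il13ra1 changed by −1.71 ± 0.38 at 0 h. Stat6, the transducer of IL-4 signals and named after its values were seen, changed by −0.32 ± 0.037 at 3 h and −0.59 ± 0.040 at 0 h. Il5ra and Il13ra2 were too low to test, and Il5ra was left with 3 counts in the Foxp3 guide group at 3 h, against 12 in the control guide group.

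**Figure D4:**
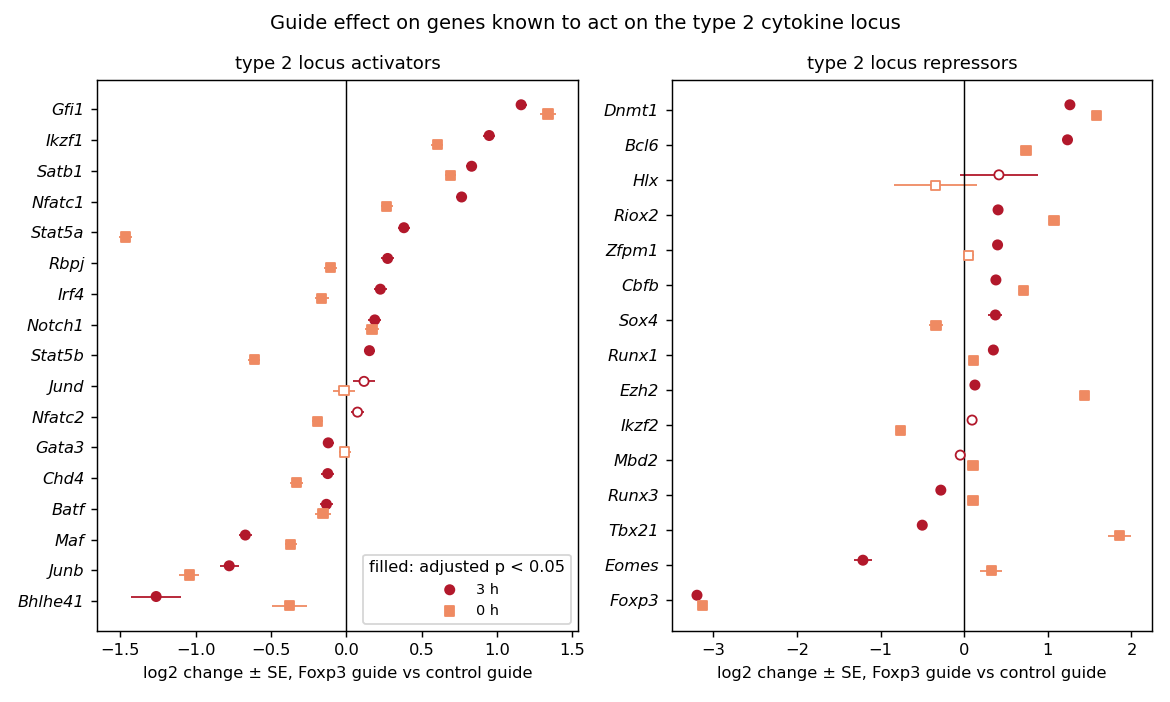
Log2 change ± SE with the Foxp3 guide against the control guide for genes known to activate (left, 17 genes) or repress (right, 15 genes) the type 2 cytokine locus, at 3 h (circles) and 0 h (squares), filled where the adjusted p was under 0.05. Gata3 lies near 0 at both times, Gfi1 lies above 1 at both, and Foxp3 is lowest at −3.19 and −3.13.

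Of 17 genes known to act on the locus as activators, 9 were higher and 6 lower with the Foxp3 guide at 3 h (30.7% and 30.8% of all genes), with a median of 0.15 beside −0.01 over all genes. At 0 h, 5 were higher and 10 lower (34.2% and 29.1% of all genes), with a median of −0.15 beside 0.02. Gfi1, a repressor protein that supports Th2 cell growth, rose by 1.16 ± 0.036 at 3 h and 1.34 ± 0.055 at 0 h, and was at 131.33 and 129.0 TPM with the Foxp3 guide at 3 h, against 70.86 and 67.85 TPM. Ikzf1, which encodes Ikaros, rose by 0.95 ± 0.039 at 3 h. Bhlhe41 changed by −1.26 ± 0.17 at 3 h. At 0 h Stat5a changed by −1.46 ± 0.044 and the AP-1 gene Junb by −1.04 ± 0.066. Gata3, the lineage factor of Th2 cells, was named after its values were seen: it had 93.41 and 89.44 TPM with the Foxp3 guide at 3 h, against 112.6 and 112.53 TPM, and 50.82 and 51.03 TPM at 0 h, against 59.66 and 63.57 TPM. In the fit to counts its log2 change was −0.12 ± 0.038 at 3 h (adjusted p = 0.0077) and −0.01 ± 0.042 at 0 h (adjusted p = 0.84). In TPM its libraries with the Foxp3 guide were the lower at both times, without overlap, so the size of its change depended on the scale. On log2(TPM + 1) the median gene moved by −0.118 at 3 h and −0.152 at 0 h.

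On restimulation 13 of the activators rose and 4 fell with the Foxp3 guide (40.8% and 44.5% of all genes). With the control guide 12 rose and 5 fell (40.9% and 40.9% of all genes). The medians were 1.15 and 1.19 beside −0.07 and −0.01 over all genes. Irf4, a partner of BATF in T cells, rose by 5.22 ± 0.043 for the Foxp3 guide, against 4.83 ± 0.044 for the control guide, and Gfi1 by 3.48 ± 0.039 and 3.66 ± 0.052. Stat5a rose by 4.0 ± 0.043 with the Foxp3 guide, and its TCR effects differed by 1.85 ± 0.060. Over the list that difference was called higher for 10 genes and lower for 3 (17.8% and 27% of all genes), with a median of 0.21 beside −0.09 over all genes.

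Genes known to repress the locus, Foxp3 included, were higher in 8 and lower in 4 of 15 cases at 3 h (30.7% and 30.8% of all genes), with a median of 0.35 beside −0.01 over all genes. At 0 h, 10 were higher and 3 lower (34.2% and 29.1% of all genes), with a median of 0.11 beside 0.02. Foxp3 is in this list because it was targeted, and is no independent member. Dnmt1, the maintenance DNA methyltransferase, rose by 1.26 ± 0.041 at 3 h and 1.58 ± 0.037 at 0 h. Bcl6, the lineage factor of follicular helper T cells, rose by 1.24 ± 0.041 at 3 h. Tbx21, which encodes the Th1 factor T-bet, rose by 1.86 ± 0.13 at 0 h at levels of 2.63 and 2.52 TPM with the Foxp3 guide, against 0.94 and 0.77 TPM. At 3 h the same gene was lower with the Foxp3 guide, at 125.03 and 122.46 TPM, against 201.16 and 202.72 TPM, and the difference between its TCR effects was −2.36 ± 0.14. On restimulation 9 of the repressors rose and 5 fell with the Foxp3 guide (40.8% and 44.5% of all genes). With the control guide 8 rose and 6 fell (40.9% and 40.9% of all genes). The medians were 0.34 and 0.35.

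Markers of other cells that make or sense type 2 cytokines were read in the same libraries. Of 12 basophil and mast cell markers, Fcer1a, Ms4a2, Mcpt4, Tpsb2, Tpsab1 and Prss34 had 0 counts in every library, and the list summed to 43.9 to 47.1 TPM with the Foxp3 guide and 44.2 to 47.4 TPM with the control guide at 3 h. At 0 h it summed to 27.4 to 27.7 TPM with the Foxp3 guide and 17.4 to 17.7 TPM with the control guide. Nearly all of this was Kit, at 45.22 and 42.44 TPM with the Foxp3 guide at 3 h, against 46.86 and 43.84 TPM with the control guide. The sums overlapped between the guides at 3 h and did not at 0 h. In the fit to counts, Kit was called higher with the Foxp3 guide at both times (0.14 ± 0.039 at 3 h and 0.89 ± 0.043 at 0 h). At 3 h its mean was 43.83 TPM with the Foxp3 guide, against 45.35 TPM, so its direction at 3 h depended on the scale. Gata2 was higher with the Foxp3 guide at 3 h, by 2.15 ± 0.28 on the log2 scale, with 1.46 and 1.3 TPM, against 0.46 and 0.25 TPM. Cpa3, Cma1 and Mcpt8 had counts only in libraries with the Foxp3 guide, at 7, 11 and 1 counts over the 3 h group and 6, 1 and 2 over the 0 h group. The eosinophil markers Epx, Ear1 and Ear2 had 0 counts in every library, and the 7 eosinophil markers summed to 2.21 to 2.53 TPM with the Foxp3 guide and 1.69 to 2.31 TPM with the control guide at 3 h, and to 0.69 to 0.84 TPM and 1.07 to 1.11 TPM at 0 h. At 3 h Siglecf (2.51 ± 0.36) and Ccr3 (1.26 ± 0.15) were higher with the Foxp3 guide, and Prg2, with 6 counts against 43, was lower (−3.38 ± 0.71). Prg2 passed the filter on low counts only through the control guide 3 h group. Siglecf reached the minimum in both libraries of a group only with the Foxp3 guide at 3 h (76 and 103 counts, against 9 and 12). Both genes were thus tested only through the group where they were high, and their directions support nothing. The 9 markers of type 2 innate lymphoid cells, of which 8 or 9 had counts in each group, summed to 97.9 to 103.7 TPM with the Foxp3 guide and 128 to 141 TPM with the control guide at 3 h, and to 34.2 to 36.4 TPM and 30.7 to 32.3 TPM at 0 h. Il1rl1, the IL-33 receptor gene, was higher with the Foxp3 guide at 3 h (1.09 ± 0.056), while Areg (−0.33 ± 0.051) and Rora (−0.36 ± 0.054), which made up most of the sum at 3 h, were lower. In all, 1 of 7 tested was higher and 5 were lower at 3 h (30.7% and 30.8% of all genes), and the sums did not overlap. Of the 7, Klrg1 passed the filter only through the control guide 3 h group, where it was high.

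Natural killer and invariant NKT markers, 6 in number, summed to 3.25 to 4.02 TPM with the Foxp3 guide and 4.35 to 4.86 TPM with the control guide at 3 h, and to 18.7 to 18.9 TPM and 3.79 to 3.85 TPM at 0 h, with Klra8 at 0 in all groups. At 0 h most of the sum with the Foxp3 guide was Klrd1 (16.57 and 16.53 TPM, against 2.23 and 2.45). At 3 h Klrd1 was higher with the Foxp3 guide (2.21 and 1.79 TPM, against 0.08 and 0.64). Eomes was lower (1.71 and 1.39, against 4.24 and 4.15). Of 4 tested, 4 were higher and 0 lower at 0 h (34.2% and 29.1% of all genes). At 3 h, 1 was higher and 1 lower (30.7% and 30.8%). Klrb1c passed the filter only through the Foxp3 guide 0 h group, which fixed its direction. The 7 B cell markers summed to 25.91 to 26.01 TPM with the Foxp3 guide and 88.3 to 89.2 TPM with the control guide at 3 h, and to 265 to 270 TPM and 1154 to 1163 TPM at 0 h, with Ms4a1 at 0 in both Foxp3 guide groups. The 2 CD8 genes summed to 6.69 to 7.12 TPM with the Foxp3 guide and 6.08 to 6.38 TPM with the control guide at 3 h, and to 7.67 to 8.03 TPM and 9.27 to 9.58 TPM at 0 h. The part of these markers in the cytokine results was not tested.

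Across the 8 libraries, the genes whose centred log2 CPM profiles lay nearest to that of Il4, by Euclidean distance, included Pou2af1 (distance 2.44, Pearson r = 0.983), Epha2, Il5 and Ptgs2. Il13 had Il31 nearest (1.59, r = 0.996), then Csf2, Il2, Sphk1 and Crabp2. For Il5 the nearest were Gm2663 (1.03, r = 0.995), Il6, 1810009J06Rik, Cxcl9 and Cd160. Il5 was thus among the 5 profiles nearest to Il4 by distance (3.80), while Il13 stood at place 98 from Il4 (6.08). Their correlations with Il4 were nearly the same (r = 0.947 for Il5 and 0.946 for Il13). The neighbours in the locus were far from the cytokines: seen from Il4, Irf1 was at place 6532, Rad50 at 10858 and Kif3a at 13795 of the tested genes. Rad50 had Ubr7 nearest (0.10), then Hexa and Dusp7, Kif3a had 2610020C07Rik (0.27), H2afv and Dglucy, and Irf1 had Gm12250 (0.32), Igkc and Gm4841. These are descriptions over 4 groups of 2 libraries that share the same steps of guide and time.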

How the data were processed

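The submitters' processing notes list Trim Galore 0.6.3, STAR 2.7.9a and RSEM 1.3.1, with mm10 (GRCm38) as the genome build. Expected counts, as deposited by the authors, were whole in 92.9% of cases and were rounded for the count models, and the TPM values deposited by the authors served for levels. Gene positions came from GENCODE M21 (GRCm38), in which 55480 of 55665 identifiers matched without their version. The members and gene lists were chosen with earlier results of these data known, and so were the tests.

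Genes were filtered with filterByExpr (16642 kept), scaled by TMM and fitted with edgeR 4.0.16 (quasi-likelihood, robust) in R 4.3.3 on all 8 libraries, with 1 mean per group, 4 residual degrees of freedom and a common biological coefficient of variation of 3.41%. Calls used a Benjamini-Hochberg adjusted p under 0.05 over all tested genes. A fold over a group with 0 counts was bounded by 3 counts for that group, and 95% intervals of ratios are exact and cover counting error only. The script was tested on simulated counts. Alternatives were other scalings, DESeq2 1.42.0, limma 3.58.1 (voom, and trend on log2 TPM), other filters, fewer libraries and a replicate block. Figures and tables were made with Python 3.11.15, pandas 2.3.3, scipy 1.17.1 and matplotlib 3.10.9.

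Named genes were the 6 members, all genes annotated in the span, the wider neighbours, the 3 largest called changes of each list and the nearest profiles, of which 1 is not reported here. Lists covered wider neighbours, type 2 receptors and signalling, locus activators, locus repressors, other Th2-cell genes, cytokine genes of other loci and markers of 8 cell types. Replicates of a group differed beyond sampling noise (chi-square per gene 4.54 to 7.47), and all libraries were kept. Same-numbered libraries did not deviate together (correlations −0.0757 to 0.00947), so the main fit has no block.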

Additional observations from a re-analysis of the deposited data

Results flagged for a closer look

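The TCR effect differed between the guides, by the test of the difference itself, for 2 of the 6 members (44.8% of all genes). For Irf1 the difference was −1.29 on the log2 scale, with a rise of 0.77 for the Foxp3 guide, against 2.06 for the control guide, and it held in each alternative fit that was run, between −1.32 and −1.23 when single libraries were left out. For Rad50 the difference was −0.26, with a fall in both guides (−0.98 for the Foxp3 guide, against −0.71 for the control guide), and it was not called by DESeq2, on the TPM scale or without 1 of the Foxp3 guide 3 h libraries. Groups of 2 libraries allow no test for an outlying library.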

How the results depend on the processing

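Of 367 values of the members under 13 alternative settings, 350 kept their call and direction, and of 240 values with 1 library left out 237 did, with 0 called values reversed. The difference between TCR effects for Rad50 was −0.20 by DESeq2 (adjusted p = 0.088) and −0.13 by limma on log2(TPM + 1), on log2(TPM + 0.1) and on log2(TPM + 1) with no filter (adjusted p = 0.26, 0.3 and 0.33). The guide effect on Rad50 at 3 h was 0.049, 0.053 and 0.049 in those 3 fits (adjusted p = 0.52, 0.52 and 0.61). The difference for Il13 passed the threshold by limma-voom (3.18, adjusted p = 0.0033) and in the 3 TPM fits (4.47, 4.0 and 4.47), that for Il5 likewise (3.18, adjusted p = 0.0047, then 3.10, 3.65 and 3.10), and that for Il4 with log2(TPM + 1), with and without the filter (2.50 in both). The cause of these changes was not tested. With 1 library left out, the guide effect on Il13 at 0 h ranged from 1.24 to 4.78 (the highest a fit with 0 control counts left, and no bound), the difference for Kif3a from −0.38 to −0.071, that for Rad50 from −0.34 to −0.18 and that for Il4, called in no case, from −0.78 to 0.997.

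The rise in the cytokine-to-neighbour ratio at 3 h with Rad50, Kif3a or Irf1 alone in place of the mean was 4.73, 4.17 and 6.72 for Il4, 4.63, 4.07 and 6.61 for Il13, and 3.94, 3.38 and 5.92 for Il5. With the replicate number as a block, all 30 member results kept their call (Il4 guide effect at 0 h 4.50, Il13 2.21), and the numbers are not said to pair libraries. Genes called for the difference between TCR effects numbered 7457 in the main model and 4843 on log2(TPM + 1) with no filter. The TPM fits moved the median of all genes by −0.118 to −0.326 in the guide and TCR comparisons. A minimum of 1 CPM in all libraries left no value for Il4, Il13 and Il5, and fitting only the 4 libraries at 0 h none for Il13 and Il5. Thinning all libraries to the smallest total, chosen after seeing the data, changed no member's call. At 0 h, Il13 and Il5 rest on 8 or fewer counts in each group.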

Other observations

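Other genes of Th2 cells moved unevenly with the guide. Of 14 tested, 8 were higher and 5 lower at 3 h (30.7% and 30.8% of all genes), with a median of 0.76 beside −0.01 over all genes. At 0 h, 5 were higher and 2 lower (34.2% and 29.1% of all genes), with a median of 0.39 beside 0.02. Il31, a cytokine gene on another chromosome whose profile was nearest to that of Il13, had 323.24 and 323.23 TPM with the Foxp3 guide at 3 h, against 32.96 and 34.44 TPM with the control guide, a log2 change of 3.46 ± 0.058. The leukotriene receptor gene Cysltr1 rose by 3.15 ± 0.13 at 3 h and 2.71 ± 0.10 at 0 h. Il17rb, which encodes a chain of the IL-25 receptor, was left with 3 counts in the Foxp3 guide group at 3 h, against 22 in the control guide group, or −3.46 as a log2 ratio (−5.84 to −1.73). The chemokine receptor gene Ccr8 rose by 1.82 ± 0.049 at 0 h.

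Of 8 cytokine genes of other loci, 7 were higher and 0 lower with the Foxp3 guide at 3 h (30.7% and 30.8% of all genes), with a median of 1.2 beside −0.01 over all genes. At 0 h, 1 was higher and 2 lower (34.2% and 29.1% of all genes), with a median of −0.28 beside 0.02. Il2 had 4617.9 and 4648.66 TPM with the Foxp3 guide at 3 h, against 572.49 and 567.65 TPM with the control guide, a log2 change of 3.22 ± 0.066, below those of Il4, Il13 and Il5. Il17f rose by 1.87 ± 0.053 and Il22 by 1.46 ± 0.42. All 8 were called higher on restimulation with both guides (40.8% of all genes for the Foxp3 guide and 40.9% for the control guide). The filter on low counts fixed this direction for Il17a, Il17f, Il21 and Il22, which passed it only through the 3 h groups. The difference between the TCR effects was called higher for 5 and lower for 0 (17.8% and 27% of all genes), with Tnf at 2.16 ± 0.0999 first among them.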
